A study of Mus musculus with 8 samples.

Results

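Mesoderm progenitors were compared with mouse embryonic stem cells (mESCs) kept under BMP4, and the genes that set the groups apart in every library were described by class. The comparison used 5 of the 8 RNA-seq libraries of the series, chosen by their labels: 2 libraries of mesoderm progenitors, from days 3 and 4, and the 3 unsorted mESC libraries labelled 2i-Jaki-BMP-Alk5i, from days 2, 5 and 11, called 2iJ+B-A here. All 5 came from R1, a mouse embryonic stem cell line. The 2iJ+B-A cells grew without feeder cells in medium with serum, with CHIR99021 (a GSK3 inhibitor) at 3 µM, PD0325901 (a MEK inhibitor) at 1 µM, a JAK inhibitor at 2.0 µM, BMP4 at 10 ng/ml and ALK5 inhibitor II at 10 µM. For the mesoderm progenitors, embryoid bodies were formed in a medium for which no serum is listed, dissociated, and re-aggregated on day 2 with BMP4, Activin A and Wnt3a. Collection was on day 3, or on day 4 after a day with IWP-2, a compound that blocks Wnt secretion. The medium, the culture as aggregates and the added factors thus differed together between the groups and cannot be told apart from cell identity. Each day was 1 library, so the spread within a group includes change over its days, and nothing in the labels marks separate cultures of the same day. The study adjusted its own values for experiments made on distinct days, and no label of these libraries gives such a batch, so batch and group cannot be told apart. Days are those of the labels, although the series' own text names a shorter culture for the stem cells. The other 3 libraries, with 1 each, were R1 cells on day 5 in 2i (the GSK3 and MEK inhibitors alone), R1 cells on day 5 in 2iJ (2i with the JAK inhibitor), and GFP-positive cells of a Cdx2-GFP line, sorted on day 2 from the full 2iJ+B-A medium.

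In the gastrulating embryo, epiblast cells leave the epithelium at the primitive streak under Wnt, Nodal, BMP and FGF signals and become migratory mesoderm. Mesp1, a basic helix-loop-helix factor, marks the earliest progenitors of the heart and of cranial mesoderm, and Lhx1, a LIM homeodomain factor, is active in the streak and in nascent mesoderm. Naive mESCs are held in a state close to the epiblast before implantation by a network of factors that includes Esrrb, an orphan nuclear receptor, and the MEK and GSK3 inhibitors of 2i favour that state.

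Total reverse-strand gene counts were between 24532587 and 31453888 in the 5 libraries, and between 2.17% and 3.33% of read pairs were unmapped. The sorted library stood apart, with 29.7% unmapped and 19810855 gene counts. Expression of single genes is given as CPM (a gene's share of all gene counts of the library, scaled to a total common to all libraries), for which 3 counts, taken as the lowest reliable level, correspond to between 0.095 and 0.122 CPM. The marker genes followed the labels. All 8 mesoderm markers that passed the filter on low counts were higher in the mesoderm progenitors, with a summed level of 1767 and 601 CPM against 14.7, 31.7 and 59.4 CPM in 2iJ+B-A. Of 9 markers of naive stem cells, 8 were lower, at 292 and 163 CPM in sum against 2706, 2886 and 3053 CPM. Lists of other cell types were not at 0, and a few genes that mesoderm or other tissues also use carried much of their sums. The primitive endoderm list summed to 180 and 368 CPM in the mesoderm progenitors and to between 118 and 489 CPM in 2iJ+B-A, with 2 of 10 tested members lower. Of the 368 CPM on day 4, Gata4 made 226 and Gata6 98.7, and both are also in the list of lateral plate and cardiac mesoderm. The trophectoderm list summed to 134 and 610 CPM against 184, 435 and 190 CPM, with 4 of 11 tested members lower (Krt7, Esx1, Ascl2 and Lgals3), and its member Tpbpa was at 0 in all 3 2iJ+B-A libraries. Hand1, which is in the lateral plate and cardiac list as well, made 540 of the 610 CPM on day 4 and 42.1 CPM on day 3. The definitive endoderm list was at 36.1 and 35 CPM against values between 9.17 and 45.8 CPM, with Trf at 0 in all 5 libraries and 1 of 5 tested members (Cxcr4) higher. The neuroectoderm list was at 202 and 26.7 CPM against 46.1, 34 and 30.5 CPM, with Neurog2 and Six3 at 0 in both mesoderm libraries, Olig2 at 0 in all 3 2iJ+B-A libraries and 1 of 5 tested members (Dcx) higher. Nes alone made 200 of the 202 CPM on day 3. Germ cell markers summed to 27.6 and 26.7 CPM against 309, 216 and 167 CPM, with 4 of 7 lower (Dppa3, Dazl, Tcfap2c and Prdm14). Dppa3, Tcfap2c and Prdm14 are also in the naive pluripotency list. Of the 309 CPM in 2iJ+B-A on day 2, Tcfap2c made 117 and Dppa3 91.3. The part of these cells in the gene classes described here was not tested. In bulk RNA, fewer cells of a type and less RNA per cell cannot be told apart.

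The 3 marker genes illustrate the range of patterns. Mesp1 (ENSMUSG00000030544; NCBIM37 chromosome 7, 86937127 to 86938674, minus strand) was at 181 CPM on day 3, 6.36 CPM on day 4 and 0.122, 0.286 and 0 CPM in 2iJ+B-A. Lhx1 (ENSMUSG00000018698; chromosome 11, 84331479 to 84338923, minus strand) was at 181 and 17.4 CPM against 0.245, 0.699 and 0.326 CPM. Esrrb (ENSMUSG00000021255; chromosome 12, 87702067 to 87862578, plus strand) was at 6.2 and 3.91 CPM against 240, 285 and 296 CPM. None of the 3 overlapped between the groups, but Mesp1 and Lhx1 differed widely between the mesoderm days whereas Esrrb was low on both. Their log2 fold changes (mesoderm progenitors over 2iJ+B-A) were 9.37 (standard error, SE, 1.65; edgeR adjusted p = 0.0109), 7.84 (SE 1.09; adjusted p = 0.0058) and -5.75 (SE 0.277; adjusted p = 0.000583). Without either mesoderm library Mesp1 no longer passed the filter on low counts and was not tested. The sequences upstream of these genes, and of Trim43a, the named gene with the widest gap between the groups, are shown because the 4 genes mark both sides of the comparison. They are RefSeq promoters (from the GRCm38.p6 assembly) that each matched NCBIM37 at a single place, printed 5′ to 3′ on the strand of the gene. For Lhx1, Esrrb and Trim43a the 250 bases before the RefSeq start are given. The RefSeq start of Mesp1 lies 198 bases inside the annotated gene, in the 5′ UTR, so only 30 bases around a motif are given. Capitals mark a match to a TCF/LEF motif (CTTTGAT) in Mesp1, ending 25 bases before the start, and to a KLF motif (GGGTGTGG, read on the opposite strand) in Trim43a, 55 to 48 bases before the start.
Mesp1 (chr7:86938489-86938518, minus strand): gctcgagccggCTTTGATatgctgatgaat
Lhx1 (chr11:84339037-84339286, minus strand): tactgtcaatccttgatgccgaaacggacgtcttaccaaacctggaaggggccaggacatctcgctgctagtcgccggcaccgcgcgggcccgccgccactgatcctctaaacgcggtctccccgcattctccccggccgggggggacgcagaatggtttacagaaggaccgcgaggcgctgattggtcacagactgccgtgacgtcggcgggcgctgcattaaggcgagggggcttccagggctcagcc
Esrrb (chr12:87701817-87702066, plus strand): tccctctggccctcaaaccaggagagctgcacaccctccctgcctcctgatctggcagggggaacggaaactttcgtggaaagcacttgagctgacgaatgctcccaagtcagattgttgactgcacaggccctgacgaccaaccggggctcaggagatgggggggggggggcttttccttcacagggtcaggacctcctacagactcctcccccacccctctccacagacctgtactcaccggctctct
Trim43a (chr9:88475479-88475728, plus strand): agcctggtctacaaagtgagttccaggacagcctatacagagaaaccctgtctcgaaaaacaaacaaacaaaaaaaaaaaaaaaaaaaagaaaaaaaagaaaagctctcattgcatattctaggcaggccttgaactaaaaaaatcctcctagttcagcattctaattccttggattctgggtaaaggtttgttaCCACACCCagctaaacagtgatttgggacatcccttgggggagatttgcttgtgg
Of 7 motifs searched on both strands, the windows of Lhx1 and of this Esrrb promoter held none. Mesp1 also held a T-box motif (AGGTGTGA), 6 to 13 bases after the start.

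Across all genes, the groups were far apart. A gene is called here when the adjusted p-value of edgeR was under 0.05, which held for 4584 of 16961 genes (27.0%). Of the called genes, 1957 (11.5%) were higher and 2627 (15.5%) lower in the mesoderm progenitors, and the median log2 fold change over all genes was -0.03. A gene was taken to separate the groups when both mesoderm values lay above, or both below, all 3 values of 2iJ+B-A, that is, in all 6 library pairs. In this sense 4482 genes (26.4%) were higher and 5237 (30.9%) lower. An exact permutation test of 2 libraries against 3 cannot go below 0.1 (1-sided) or 0.2 (2-sided), so separation is a description. The gap of a gene is the smallest log2 CPM difference over the 6 pairs. With a gap of at least 1 log2 unit, 1032 genes (6.08%) were higher and 2188 (12.9%) lower, and 93.5% of these were called. Of the 2188 lower genes, 326 had 0 counts in both mesoderm libraries. A gene can pass the filter through the 6 stem cell libraries alone, so the number of such genes depends on the filter. Counts of calls depended on single libraries. Without the 2iJ+B-A library of day 5, 2019 genes were called, and without that of day 11, 2666.

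On the mesoderm side, signalling molecules and their receptors led the genes with the widest gaps. Genes were ranked by gap among called genes that separate the groups, so their lack of overlap follows from that choice. The Wnt ligand Wnt2, which acts in heart and lung mesoderm, was at 21 and 18.9 CPM in the mesoderm progenitors and at 0.163, 0.318 and 0.0326 CPM in 2iJ+B-A. Aplnr, the apelin receptor of migrating mesoderm, was at 189 and 103 CPM against 0.53, 2.16 and 0.0326 CPM. Rspo3, a secreted enhancer of Wnt signalling, was at 59.8 and 29 CPM against 0.408, 0.572 and 0.228 CPM. All 3 were at or under 2.16 CPM in the stem cells, and the lower mesoderm value was far above every stem cell value. Their log2 fold changes were 6.84 (SE 0.743; edgeR adjusted p = 0.00302), 7.32 (SE 1.1; adjusted p = 0.00703) and 6.78 (SE 0.539; adjusted p = 0.00157). Wnt5a, a Wnt ligand that guides cell movement and axis extension, was at 87.3 and 95.2 CPM against 1.55, 3.75 and 3.22 CPM (log2 fold change 5.02, SE 0.391, adjusted p = 0.00152). It was as high on day 4 as on day 3, unlike Lhx1, which was also among the 15 widest gaps. The homeobox gene Six2, known from nephron progenitors, was at 59.3 and 33.4 CPM against 0.367, 0.922 and 0.195 CPM. Gfra2, a receptor for the neurotrophic factor neurturin, was at 31.8 and 46.8 CPM against 0.938, 1.18 and 0.228 CPM. Vrtn, known for its effect on the number of vertebrae in pigs, was at 262 and 76.2 CPM against 2.32, 2.96 and 2.64 CPM. The log2 fold changes of Six2, Gfra2 and Vrtn were 6.54, 5.67 and 6. Mid1, a microtubule-associated ubiquitin ligase, was at 207 and 185 CPM against 3.83, 7.44 and 3.55 CPM. It was at 191 CPM in the Cdx2-GFP-sorted library, which was outside the comparison. Fndc3c1, Klhl6, Lrrc4b, Cplx2 and Vstm2b were also among the 15, with gaps between 4.54 and 4.96 log2 units. In the plot of the genes with the widest gap, day 3 and day 4 lie close together for Wnt2, Mid1, Cplx2 and Wnt5a and apart for Lhx1, Klhl6 and Vrtn.

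On the stem cell side the gaps were wider, and genes of the early embryo, of germ cells and of the testis were among the first. Trim43a (ENSMUSG00000067399; chromosome 9, 88475729 to 88483945), a member of a family of genes active in the preimplantation embryo, had 0 counts in both mesoderm libraries and 53.6, 54 and 74.5 CPM in 2iJ+B-A, at least 632-fold lower in the mesoderm progenitors when each mesoderm library is set at 3 counts. Gm13128, in the PRAME family, had 0 counts against 16.2, 42.2 and 89.3 CPM (at least 512-fold lower), and Pramel6 had 0 counts against 11.7, 14.8 and 25.5 CPM (at least 180-fold lower). Families of near-identical genes share reads, and the counts hold only pairs aligned to a single place, so levels of single TRIM43 and PRAME genes are uncertain. Calcoco2, an autophagy receptor, was at 0.254 and 0.937 CPM against 446, 485 and 512 CPM, a log2 fold change of -9.63 (SE 0.533; edgeR adjusted p = 0.000889). The values of Calcoco2 in the other libraries were also high, at 296 CPM in 2i, 281 CPM in 2iJ and 736 CPM in the sorted cells. Crxos1, a homeobox gene, had 2 counts in each mesoderm library against 1617, 2412 and 2440 counts. Spic, an ETS factor, had 0 and 5 counts against 49.6, 39.8 and 52.6 CPM. These genes were also chosen by their gap, so the lack of overlap is part of that choice. Ddr2, a collagen receptor that is better known from mesenchyme, was at 0.254 and 0.291 CPM against 75.7, 209 and 278 CPM (log2 fold change -9.39, SE 0.804). Rpl10l and Rpl39l, ribosomal protein genes of the male germ line, were at or under 0.549 CPM in both mesoderm libraries and between 41.6 and 88.9 CPM in 2iJ+B-A. D1Pas1, a DEAD-box helicase gene of the testis, was at 0.254 and 0.291 CPM against 39.8, 41.7 and 53.1 CPM. The remaining genes of the 15 were Mep1b (a meprin subunit), D14Ertd668e, Msc (a basic helix-loop-helix factor), 2410004A20Rik and Aspa (aspartoacylase), with gaps between 7.06 and 7.91 log2 units. For comparison, the widest gap among the 15 genes of the mesoderm side was 5.65 log2 units.

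**Figure D1:**
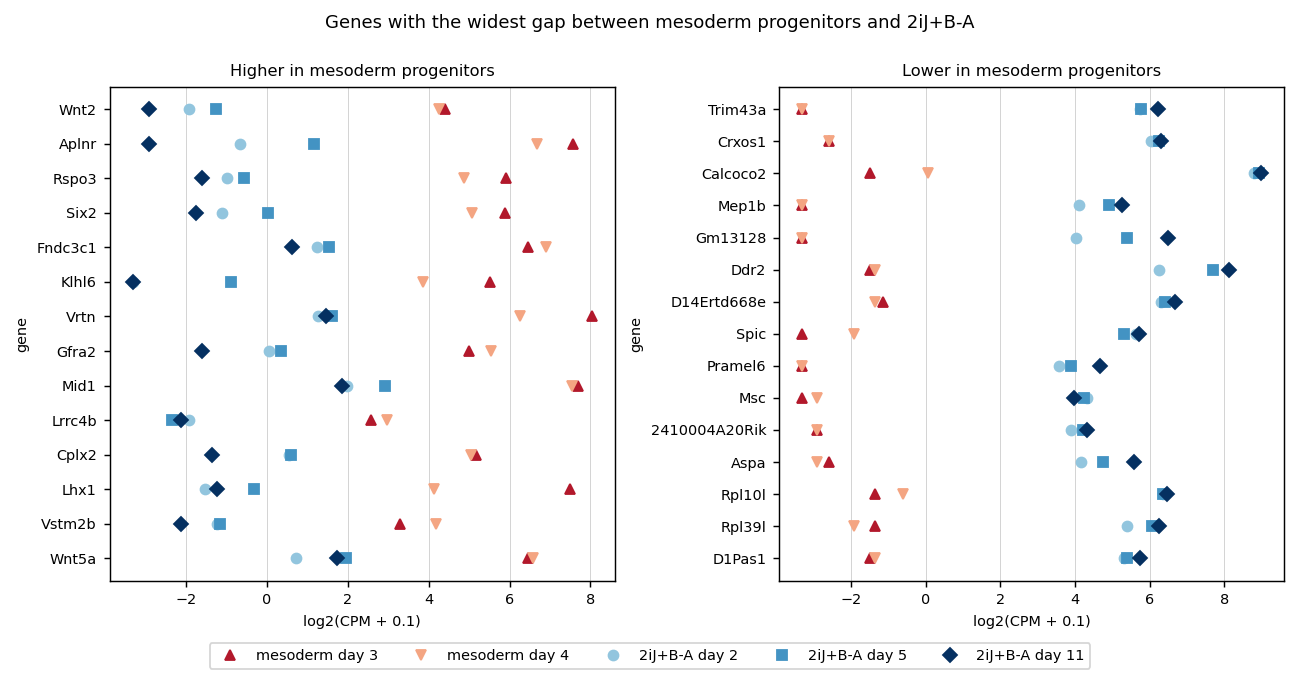
Expression of genes with the widest gap between mesoderm progenitors and 2iJ+B-A (14 higher and 15 lower), as log2(CPM + 0.1) on the x axis, with 1 point per library and 1 row per gene. The groups do not overlap in any row because the genes were chosen by their gap. Among the lower genes, 4 (Trim43a, Mep1b, Gm13128 and Pramel6) sit at 0 CPM in both mesoderm libraries.

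To describe functional classes, 29 gene lists were examined, with 576 distinct members that passed the filter. Of these, 270 were called, 145 higher and 125 lower in the mesoderm progenitors, against 27.0% of all genes. The lists were chosen with earlier results of these data known, so a larger share than among all genes is a description only. Without the 2iJ+B-A library of day 5, 174 members were called. In the plot of called members, the lists of cholesterol synthesis, NOTCH, ERK feedback, nascent mesoderm and secreted signals reach farthest to the mesoderm side, and those of early embryo genes, naive pluripotency and germline genes farthest to the stem cell side. Some genes are in more than 1 list, for example Twist1, Lef1 and Hey1, and every count covers members that passed the filter. The called members Tal1, Cfc1, Sp8, Dll1, Hey2 and Epha1 did not separate the groups in all 6 pairs. In each list the members with the widest gap were chosen among called, separating members, so their lack of overlap follows from that choice. Of all genes, 26.4% separated the groups as higher and 30.9% as lower. When single libraries were left out, 105 list counts moved by more than 1.5 times and 185 did not, and counts of 3 or fewer moved most easily. For lists with 0 edgeR calls in a direction, DESeq2 gave 1 call each for naive pluripotency (higher), formative epiblast (lower) and secreted signals (lower) and 0 for the others.

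**Figure D2:**
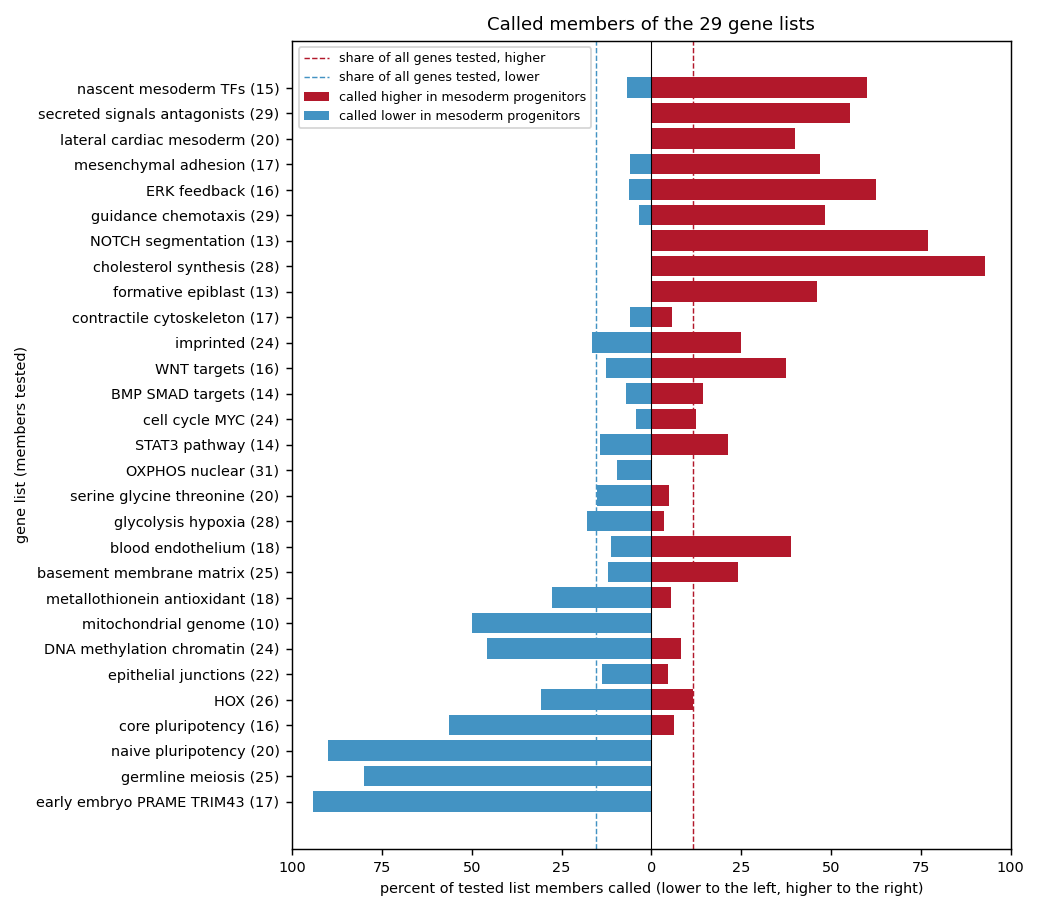
Share of the tested members of 29 gene lists (number in brackets) that were called higher (to the right) or lower (to the left) in mesoderm progenitors, in percent, with dashed lines at the shares over all genes. Cholesterol synthesis has 26 of 28 members to the right and the early embryo list 16 of 17 to the left, beyond the lines at 11.5% and 15.5%.

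Transcription factors of nascent mesoderm were higher in the mesoderm progenitors, mostly with the higher level on day 3. Of 15 tested, 9 were called higher (T, Mesp1, Mesp2, Mixl1, Eomes, Lhx1, Tbx6, Sp5 and Snai1), against 11.5% of all genes. Cdx4 alone was called lower, a share under the 15.5% of all genes, and the median log2 fold change was 4.77. The median log2 ratio of day 4 to day 3 over the list was -4.6. T (brachyury), a T-box factor of the streak, was at 547 CPM on day 3 and 6.3 CPM on day 4 against at most 0.668 CPM in 2iJ+B-A (log2 fold change 9.34, SE 1.8, edgeR adjusted p = 0.0144). Cdx4, a caudal homeobox gene of the posterior body, was at 3 and 0 counts in the mesoderm progenitors and at 0.856, 0.858 and 1.86 CPM in 2iJ+B-A. Calls depended on single libraries. That of T was lost without the 2iJ+B-A library of day 2 or day 5 (adjusted p = 0.0609 and 0.0553), and that of Cdx4 without the mesoderm library of day 4 or any 2iJ+B-A library (adjusted p between 0.0515 and 0.0643). Higher calls numbered 4 without the mesoderm library of day 3, 2 without the 2iJ+B-A library of day 2, 2 without that of day 5 and 5 without that of day 11.

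Genes of lateral plate and cardiac mesoderm had the opposite order of days. Of 20 tested, 8 were called higher, against 11.5% of all genes, and 0 lower, against 15.5%. The median log2 fold change was 3.09, and the median log2 ratio of day 4 to day 3 was 3. Twist1, a basic helix-loop-helix factor of mesenchyme, was at 23.8 and 19.6 CPM against 0.489, 1.34 and 1.24 CPM (log2 fold change 4.41, SE 0.499, edgeR adjusted p = 0.00336). The forkhead gene Foxc1, which acts in paraxial mesoderm and in vessels, was at 8.23 and 21.6 CPM against 0.204, 1.08 and 0.423 CPM. Its relative Foxf1a, of lateral plate mesoderm, was at 12.7 and 18.4 CPM against 0.693, 2.48 and 0.0977 CPM. Foxc2 was at 3.34 and 5.62 CPM against at most 0.604 CPM. The 3 forkhead genes, chosen among separating members, did not overlap between the groups. Higher calls numbered 16 without the mesoderm library of day 3, 4 without that of day 4, and 5 without the 2iJ+B-A library of day 2 or that of day 5. The Foxf1a call was lost without the mesoderm library of day 4 (edgeR adjusted p = 0.0801) and without the 2iJ+B-A library of day 2 (adjusted p = 0.122).

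Blood and endothelial genes held calls in both directions. Of 18 tested, 7 were called higher (Kdr, Etv2, Tal1, Lmo2, Cdh5, Fli1 and Sox18), against 11.5% of all genes. The 2 called lower (Gata2 and Flt1) were a share under the 15.5% of all genes, and the median was -0.20. Kdr, the VEGF receptor of the earliest blood and vessel precursors, was at 67.8 CPM on day 3 and 305 CPM on day 4 against 2.65, 8.14 and 5.66 CPM (log2 fold change 5.11, SE 0.74, edgeR adjusted p = 0.00634). Lmo2, a partner of Tal1 in blood formation, was at 4.77 and 17.2 CPM against at most 0.54 CPM. Gata2, a zinc finger factor used in blood stem cells and in trophoblast, was at 8.01 and 12.4 CPM in the mesoderm progenitors and at 172, 210 and 120 CPM in 2iJ+B-A (log2 fold change -4.02, SE 0.348, adjusted p = 0.00179). It was at 3.02 CPM in 2i, 12.3 CPM in 2iJ and 460 CPM in the sorted cells, so the 2i and 2iJ libraries lay with the mesoderm progenitors. Cdh5, the cadherin of endothelium, was at 1.59 and 8.17 CPM against at most 0.286 CPM. Higher calls numbered 2 to 3 without the mesoderm library of day 4 or any single 2iJ+B-A library, and the Cdh5 call was lost without the 2iJ+B-A library of day 5 (adjusted p = 0.0519). The Flt1 call was lost without any library other than the 2iJ+B-A library of day 2 (adjusted p between 0.087 and 0.144).

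With all libraries in the fit, secreted signals, their antagonists and receptors were called by edgeR in the mesoderm direction alone. Of 29 tested, 16 were called higher, 0 lower and 13 not at all, against 11.5% higher among all genes, and the median log2 fold change was 3.35. They included the Wnt ligands Wnt3 and Wnt5a, the FGFs Fgf3, Fgf8, Fgf10 and Fgf15, the BMPs Bmp2, Bmp5 and Bmp7, and the retinoic acid enzyme Aldh1a2. Besides Aplnr, Rspo3 and Wnt5a, the widest gap was that of Fgf8, the ligand required for cells to leave the streak, at 54.3 and 7.17 CPM against 0.0815, 0.35 and 0.0977 CPM (log2 fold change 7.39, SE 1.07, edgeR adjusted p = 0.00638). The median log2 ratio of day 4 to day 3 was -1.73. Higher calls numbered 9 without the 2iJ+B-A library of day 2 and 7 without that of day 5.

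Most feedback genes of the ERK pathway were called higher in the mesoderm progenitors. ERK is the kinase under MEK, and its activity induces phosphatases (Dusp) and adaptors (Sprouty and Spred proteins) that damp the same pathway. The 2iJ+B-A medium held a MEK inhibitor and the mesoderm protocol lists none, so this difference cannot be told apart from the groups. Of 16 tested, 10 were called higher, against 11.5% of all genes. The 1 called lower was a share under the 15.5% of all genes, and the median log2 fold change was 2.80. Dusp4 (ENSMUSG00000031530; chromosome 8, 35870351 to 35882948), a nuclear ERK phosphatase, was at 176 and 151 CPM against 3.06, 7.88 and 7.52 CPM (log2 fold change 4.74, SE 0.41, edgeR adjusted p = 0.00179). Spred1, which holds back activation of RAF, was at 160 and 119 CPM against 9.54, 11.3 and 12.9 CPM (log2 fold change 3.65, SE 0.224, adjusted p = 0.00104). Spred3, of the same family, was at 27.3 and 29.9 CPM against 1.35, 2 and 2.96 CPM. In each of these the mesoderm days were close and the groups far apart. Egr1, an immediate early factor, separated too, at 12.4 and 8.4 CPM against 1.18, 1.11 and 0.326 CPM. Etv5, an ETS factor that FGF signals usually induce and that naive mESCs also express, was the member called lower, at 179 and 101 CPM against 254, 383 and 489 CPM (log2 fold change -1.42, SE 0.349, adjusted p = 0.0291). The Etv5 call was lost without the mesoderm library of day 4 (adjusted p = 0.101) or the 2iJ+B-A library of day 5 (0.0839) or day 11 (0.0708). Of the 5 members not called, Spry4, Etv1 and Etv4 had fitted log2 fold changes of 2.52, 0.78 and 2.92, and Dusp5 and Ier3 of -0.44 and -0.12. In the 3 libraries outside the comparison, Dusp4 was at 3.73 CPM in 2i, 9.07 CPM in 2iJ and 52.1 CPM in the sorted cells. Higher calls numbered 8 or 9 when any of the 5 libraries was left out.

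**Figure D3:**
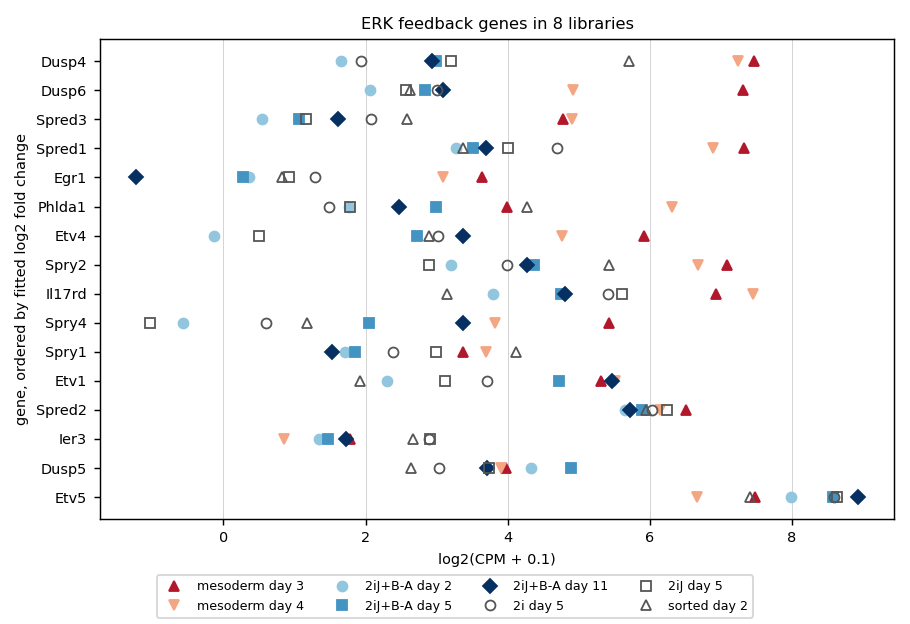
Expression of 16 ERK feedback genes in all 8 libraries, as log2(CPM + 0.1) on the x axis, ordered by the fitted log2 fold change. Filled triangles (mesoderm days 3 and 4) lie to the right of the filled blue symbols (2iJ+B-A) in the upper rows, such as Dusp4 at 176 and 151 CPM, and to the left for Etv5.

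Readouts of the other pathways were mixed. Among 16 WNT target genes, 6 were called higher, against 11.5% of all genes. The 2 called lower (Lgr5 and Tcf7l1) were a share under the 15.5% of all genes, and the median was 0.69. Nkd1, a WNT antagonist induced by the pathway, was at 61.2 and 30.5 CPM against 3.1, 4.99 and 2.73 CPM (log2 fold change 3.68, SE 0.422, edgeR adjusted p = 0.00347), and Lef1, a transcription factor of the pathway, was at 191 and 52 CPM against 7.54, 12.1 and 18.7 CPM. The WNT receptor partner Lgr5 was at 0.763 and 0.485 CPM against 6.16, 4.1 and 2.15 CPM, and its call was lost without any single library other than the 2iJ+B-A library of day 11 (adjusted p between 0.0519 and 0.0982). The Lef1 call was lost without the 2iJ+B-A library of day 5 (adjusted p = 0.0511), and that of Tcf7l1, a repressor of the pathway, without the same library (0.0549) or the mesoderm library of day 4 (0.0616). Without 1 library, higher WNT target calls numbered as few as 1 (2iJ+B-A day 5), 2 (day 2 or day 11) or 3 (mesoderm day 3). Of 14 BMP and SMAD target genes, 2 were called higher (Msx1 and Hey1) and Id4 lower. These shares were near the 11.5% and under the 15.5% of all genes. Msx1, a homeobox target of BMP, was at 40.3 and 76.9 CPM against 9.42, 6.96 and 1.89 CPM, and its call was lost without the 2iJ+B-A library of day 5 (adjusted p = 0.0601). The Id4 call was lost without any single 2iJ+B-A library (adjusted p between 0.0575 and 0.0725). Both groups had received BMP4, but not at the same dose or for the same time. The study lists a lower dose for the mesoderm progenitors, added on day 2, than the 10 ng/ml of 2iJ+B-A. Without the mesoderm library of day 3, 8 BMP and SMAD targets were called higher, and without the 2iJ+B-A library of day 5, 1. In the STAT3 list, 3 of 14 were called higher (Stat3, Jak2 and Junb), against 11.5% of all genes. The 2 called lower (Pim1 and Pml) were a share near the 15.5% of all genes, and the median was -0.02. Pim1, a kinase induced by STAT3, was at 13.4 and 9.53 CPM against 65.1, 65.9 and 54.3 CPM (log2 fold change -2.42, SE 0.222, adjusted p = 0.00203), whereas Stat3 itself was at 33.6 and 46.1 CPM against 11.7, 15.1 and 15.1 CPM (log2 fold change 1.53, SE 0.247, adjusted p = 0.00868). Both were chosen among separating members, so neither overlapped between the groups. The Jak2 call was lost without the 2iJ+B-A library of day 5 (adjusted p = 0.0582), and without the mesoderm library of day 3, 5 members were called lower.

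Genes of the NOTCH pathway and of segmentation were higher in the mesoderm progenitors. Of 13 tested, 10 were called higher (Notch1, Notch2, Notch3, Dll1, Dll3, Jag1, Hes1, Hey1, Hey2 and Lfng), against 11.5% of all genes. Lower calls numbered 0, against 15.5% of all genes, and the median was 1.75. Hey1, a repressor induced by NOTCH, was at 13.7 and 17.9 CPM against 2.49, 1.53 and 1.5 CPM (log2 fold change 3.11, SE 0.4, edgeR adjusted p = 0.0047). The receptor Notch3 was at 103 and 134 CPM against 25.7, 40.1 and 41.1 CPM (log2 fold change 1.75, SE 0.251, adjusted p = 0.00614). Dll3, a ligand of the presomitic mesoderm, was at 73.6 and 6.49 CPM against 2.98, 1.43 and 0.944 CPM, and Lfng, which modifies NOTCH receptors, at 37.3 and 3.81 CPM against 2.08, 2.13 and 0.684 CPM. The groups did not overlap for these genes, but the calls of Dll3 and Lfng were lost without any library other than the mesoderm library of day 4 (adjusted p between 0.0537 and 0.218). Higher calls numbered 4 without the mesoderm library of day 3 and 3, 2 and 4 without the 2iJ+B-A libraries of days 2, 5 and 11. In 2iJ, Hey1 was at 10.6 CPM, nearer to the mesoderm progenitors.

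Mesenchymal and epithelial genes of cell adhesion were set side by side. Of 17 mesenchymal genes tested, 8 were called higher (Cdh2, Cdh11, Vim, Snai1, Twist1, Twist2, Zeb2 and Itga5), against 11.5% of all genes, Itgb3 was called lower and 8 were not called, with a median of 2.97. Cdh2 (N-cadherin), the cadherin that replaces E-cadherin in migrating mesoderm, was at 175 and 127 CPM against 3.79, 8.2 and 9.37 CPM (log2 fold change 4.42, SE 0.402, edgeR adjusted p = 0.00203). Cdh11, a cadherin of mesenchyme, was at 153 and 107 CPM against 2.45, 6.04 and 1.82 CPM (log2 fold change 5.25, SE 0.537, adjusted p = 0.00269). Itgb3, an integrin subunit, was at 1.78 and 1.42 CPM against 16.4, 25.5 and 21.9 CPM (log2 fold change -3.71, SE 0.356, adjusted p = 0.00234). All 3 were chosen by their gap, and the groups were well separated in them. Without the 2iJ+B-A library of day 2, 5 mesenchymal genes were called higher. Among 22 epithelial junction genes, 3 were called lower (Esrp2, Cldn4 and Tjp3), near the 15.5% of all genes, and 1 higher, with a median of -0.93. The gene called higher was Dsp (desmoplakin, a desmosome component), at 346 and 212 CPM against 33.5, 36.2 and 17 CPM (log2 fold change 3.28, SE 0.368, adjusted p = 0.00328). Esrp2, a splicing factor of epithelia, was at 3.69 and 0.808 CPM against 20.8, 42.7 and 22.2 CPM. The median log2 ratio of day 4 to day 3 was -2.38 over the list, and without the day 3 library 15 of its members were called lower. The calls of Cldn4 and Tjp3 were each lost without the 2iJ+B-A library of day 2 or day 5, with adjusted p between 0.108 and 0.116, which left 1 epithelial gene called lower. Tjp3 was also lost without the mesoderm library of day 4 (adjusted p = 0.128) and Cldn4 without the 2iJ+B-A library of day 11 (0.0702).

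Of 25 matrix genes tested, 6 were called higher (Fbn1, Fbn2, Vcan, Has2, Mmp2 and Mmp14), against 11.5% of all genes, and 3 lower (Lama5, Nid1 and Nid2), a share under the 15.5% of all genes. The other 16 were not called, and the median was -0.45. Mmp14, a membrane-bound protease, was at 60 and 69.9 CPM against 5.87, 10.4 and 9.11 CPM (log2 fold change 2.95, SE 0.289, edgeR adjusted p = 0.00236). Mmp2, a secreted protease that Mmp14 activates, was at 47.6 and 138 CPM against 8.93, 7.09 and 4.49 CPM. Nid1 (nidogen), which links laminin to collagen, was at 12.9 and 50.1 CPM against 369, 498 and 548 CPM (log2 fold change -3.88, SE 0.618, adjusted p = 0.00828). As members chosen by their gap, these genes did not overlap between the groups. Has2, which makes the hyaluronan of cardiac jelly, was at 38.6 and 342 CPM against 2, 7.09 and 0.26 CPM, and its call was lost without the mesoderm library of day 4 (adjusted p = 0.0803) and without the 2iJ+B-A library of day 2 (adjusted p = 0.0886). Without that 2iJ+B-A library, 2 matrix genes were called higher and 8 lower, and without that mesoderm library 3 were called higher. In the contractile list, 1 of 17 was called higher (Tpm4) and 1 lower (Acta2, smooth muscle actin), both shares under those of all genes. Acta2 was at 8.84 and 1.52 CPM against 32.3, 200 and 70.3 CPM, and its call was lost without the mesoderm library of day 4 or the 2iJ+B-A library of day 5 or day 11 (adjusted p between 0.0565 and 0.075).

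Guidance and chemotaxis genes, best known from axons but also used by migrating mesoderm, were called higher in 14 of 29 cases, against 11.5% of all genes. Epha4 was called lower, 14 were not called, and the median was 2.05. They included both neuropilins (Nrp1 and Nrp2), plexins (Plxna2 and Plxna4), ephrins (Efna1, Efna5 and Efnb3) and the netrin receptor Unc5c. Sema6d, a semaphorin, was at 21.8 and 22.3 CPM against 0.815, 1.59 and 1.5 CPM (log2 fold change 4.09, SE 0.41, edgeR adjusted p = 0.0025). Slit3, a ligand of ROBO receptors, was at 51.7 and 44.4 CPM against 4.65, 5.02 and 4 CPM (log2 fold change 3.41, SE 0.252, adjusted p = 0.00132). Cxcr4, the chemokine receptor, was at 27.6 and 25.4 CPM against 1.67, 5.12 and 1.99 CPM (log2 fold change 3.2, SE 0.529, adjusted p = 0.00934). Efna5 was at 5.72 and 9.98 CPM against at most 1.02 CPM. For all 4 the values of the mesoderm days were within 1 log2 unit of each other. Higher calls numbered 9, 8 and 9 without the 2iJ+B-A libraries of days 2, 5 and 11.

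The class with the highest share of calls on the mesoderm side was sterol and fatty acid synthesis. Of 28 genes tested, 26 were called higher and 0 lower, against 11.5% higher among all genes. All 28 separated the groups with higher values in the mesoderm progenitors, 18 of them by at least 1 log2 unit, whereas 26.4% and 6.08% of all genes did so. The median log2 fold change was 1.74, smaller than that of the mesoderm factors but shared by nearly every member. Cyp51 (ENSMUSG00000001467; chromosome 5, 4081145 to 4104746), the lanosterol demethylase, was at 270 and 353 CPM against 44, 41.4 and 35.5 CPM (log2 fold change 2.96, SE 0.19, edgeR adjusted p = 0.00104). Lss, the cyclase that makes lanosterol, was at 201 and 240 CPM against 47, 44.7 and 36.8 CPM (log2 fold change 2.38, SE 0.18, adjusted p = 0.00143). Nsdhl, a dehydrogenase of the same pathway, was at 99.7 and 104 CPM against 22.9, 20.9 and 16.6 CPM (log2 fold change 2.35, SE 0.205, adjusted p = 0.00181). Within each group the values differed little, and day 2, day 5 and day 11 of 2iJ+B-A lay together. Other called members included Dhcr7, a late enzyme of cholesterol synthesis, Srebf2, the transcription factor of the pathway, and the desaturases Scd2, Fads1 and Fads2. Ebp (adjusted p = 0.0529) and Acly (adjusted p = 0.0844) were not called. The count was stable, at 25 to 27 when any of the 5 libraries was left out and 27 with DESeq2. The 2i and 2iJ libraries, from medium with serum, were far below the mesoderm progenitors for Cyp51 (61.7 and 49.7 CPM) and Lss (47 and 43.9 CPM), and the sorted cells were at 29.3 and 38.9 CPM. Scd2 was nearer to the mesoderm progenitors in 2i, at 1013 CPM against 1840 and 2140 CPM. No serum is listed for the mesoderm medium, and serum and group cannot be told apart.

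**Figure D4:**
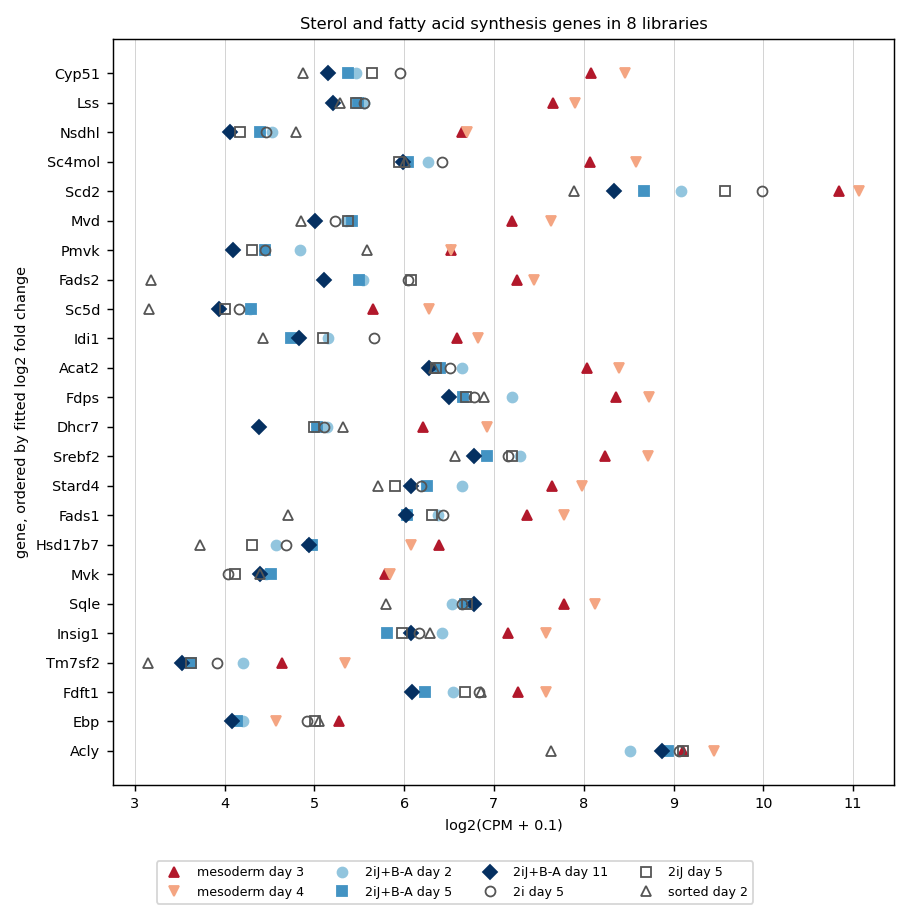
Expression of 24 of the 28 sterol and fatty acid synthesis genes in all 8 libraries, as log2(CPM + 0.1) on the x axis, ordered by the fitted log2 fold change. The triangles of mesoderm days 3 and 4 are the rightmost filled symbols in every row, and the open symbols (2i, 2iJ and sorted) lie to the left of both triangles except for Ebp and Acly, as for Cyp51 at 61.7, 49.7 and 29.3 CPM.

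Other metabolic classes had smaller shares of calls than the sterol class. Of 28 genes of glycolysis and hypoxia, 1 was called higher (Eno3) and 5 lower (Hk1, Pfkp, Ldhb, Slc2a3 and Ndrg1), with a median of -0.14 and a share of lower calls near that over all genes. The glucose transporter gene Slc2a3 was at 253 and 171 CPM against 1588, 1059 and 1304 CPM (log2 fold change -2.63, SE 0.28, edgeR adjusted p = 0.0029). Pfkp, a phosphofructokinase, was at 17.7 and 36.9 CPM against 231, 165 and 226 CPM (log2 fold change -2.91, SE 0.376, adjusted p = 0.00482). Both, chosen among separating members, were several-fold lower. Of 20 genes of serine, glycine and threonine metabolism, 1 was called higher (Slc7a7) and 3 lower (Tdh, Amt and Asns). These shares were under the 11.5% and near the 15.5% of all genes. The Slc7a7 call was lost without the 2iJ+B-A library of day 5 (adjusted p = 0.0559), and without the mesoderm library of day 3, 6 members were called lower. Tdh, the threonine dehydrogenase on which mESCs are known to depend, was at 0.191 and 0 CPM against 2.53, 5.63 and 7.23 CPM, and its call was lost without the 2iJ+B-A library of day 5 (adjusted p = 0.0551). Asns, which makes asparagine, was at 104 and 82.7 CPM against 356, 361 and 431 CPM (log2 fold change -2.02, SE 0.18, adjusted p = 0.00189). Nuclear genes of oxidative phosphorylation showed the smallest differences. Of 31, 3 were called lower (Uqcrc1, Uqcrb and Cox5a), a share under the 15.5% of all genes. The median was -0.10, and 0 or 1 were called lower when a 2iJ+B-A library was left out. Of 10 transcripts of the mitochondrial genome, 5 were called lower, against 15.5% of all genes, led by mt-Co1 at 4588 and 4798 CPM against 9064, 8879 and 9846 CPM (log2 fold change -0.97, SE 0.17, adjusted p = 0.0109). None of them was called without the 2iJ+B-A library of day 5 or that of day 11, where mt-Co1 had edgeR adjusted p of 0.0534 and 0.0556. Without the mesoderm library of day 3 or day 4, 1 and 2 were called lower, and DESeq2 with all libraries called 6. Metallothioneins, which bind zinc and other metals, stood out in their list. Mt1 was at 25.8 and 9.4 CPM against 464, 235 and 180 CPM, and Mt2 at 27 and 10.2 CPM against 759, 407 and 297 CPM (log2 fold change -4.71, SE 0.642, adjusted p = 0.00551). With Gsta4, Gstm1 and Sod2 they made 5 of 18 antioxidant genes called lower, against 15.5% of all genes. The 1 called higher (Txnrd1) was a share under the 11.5% of all genes.

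The naive pluripotency class was lower nearly throughout. Of 20 genes tested, 18 were called lower and 0 higher, against 15.5% lower among all genes, and 17 had a gap of at least 1 log2 unit. The median log2 fold change was -4.66, and between 16 and 19 members were called lower when any library was left out. Tcl1, a cofactor of AKT, was at 3 and 5 counts in the mesoderm progenitors and at 20, 22 and 34.7 CPM in 2iJ+B-A. Dppa3 (Stella), which protects maternal methylation in the zygote, was at 1 and 8 counts against 91.3, 22 and 23.9 CPM. Nr5a2, an orphan nuclear receptor, was at 1.43 and 1.29 CPM against 83.6, 107 and 132 CPM (log2 fold change -6.29, SE 0.296, edgeR adjusted p = 0.000583). Spp1 (osteopontin) was at 2 and 1.26 CPM against 170, 112 and 120 CPM (log2 fold change -6.35, SE 0.363, adjusted p = 0.000934). These genes were close to silent on both mesoderm days. Klf5 and Gbx2 were the 2 members not called. Of 16 core pluripotency genes, 9 were called lower, against 15.5% of all genes. Lin28a alone was called higher, a share under the 11.5% of all genes, and the median was -2.47. Foxd3, a forkhead gene of the epiblast and neural crest, was at 0.159 and 0.355 CPM against 23.7, 38.1 and 44.2 CPM (log2 fold change -7.06, SE 0.543, adjusted p = 0.00144). Gdf3, a TGF-beta family ligand, was at 2.1 and 0.808 CPM against 66.3, 75.1 and 88.1 CPM. Both showed a wide gap, and the median log2 ratio of day 4 to day 3 over the core list was -1.04. Without the day 3 library, 14 core genes were called lower. Genes of the formative epiblast, the state between naive cells and gastrulation, gave 6 of 13 called higher, against 11.5% of all genes, 0 lower and 7 not called. Sox11 was at 70.5 and 62.9 CPM against 3.83, 7.25 and 6.61 CPM (log2 fold change 3.51, SE 0.318, adjusted p = 0.00203), and Sox4 at 235 and 257 CPM against 40.1, 65.3 and 46.4 CPM (log2 fold change 2.3, SE 0.22, adjusted p = 0.00234). Without the 2iJ+B-A library of day 5, 3 formative genes were called higher.

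Germline and meiosis genes were lower in the mesoderm progenitors. Of 25 tested, 20 were called lower and 0 higher, all 20 with a gap of at least 1 log2 unit, against 15.5% and 12.9% of all genes. The median was -5.36, and between 18 and 20 members were called lower when any library was left out. Dazl (ENSMUSG00000010592; chromosome 17, 50418719 to 50432924), an RNA-binding protein of germ cells, was at 0.382 and 0.194 CPM against 43.7, 63.6 and 64.7 CPM (log2 fold change -7.6, SE 0.417, edgeR adjusted p = 0.000889). It was at 51.9 CPM in 2i and 51.7 CPM in 2iJ, so these libraries lay with 2iJ+B-A. Hormad1, a protein of meiotic chromosome axes, was at 3 and 6 counts against 25.4, 23.3 and 19.3 CPM, and at 30.7 and 20.2 CPM in 2i and 2iJ. Rhox6, a homeobox gene of the X chromosome expressed in germ cells and placenta, showed another pattern, at 0.604 and 0.485 CPM in the mesoderm progenitors and 182, 271 and 72.9 CPM in 2iJ+B-A but 3.38 CPM in 2i, 13.5 CPM in 2iJ and 38.4 CPM in the sorted cells. Its neighbour Rhox9 was at 0.35 and 0.614 CPM against 167, 236 and 59.1 CPM, and at 4.76 CPM in 2i and 21.4 CPM in 2iJ. The Rhox genes form a cluster of similar genes, so their counts carry the same uncertainty as the PRAME genes. The 5 members not called were Ddx4, Tdrd1, Sycp3, Spo11 and Dmc1.

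Genes of the early embryo were at or near 0 in the mesoderm progenitors. Of 17 members of the PRAME, TRIM43, ZSCAN4 and related families that passed the filter, 16 were called lower and 0 higher. Each of the 16 had a gap of at least 1 log2 unit, against 15.5% called lower and 12.9% with such a gap among all genes. Members with 0 counts in both mesoderm libraries could pass the filter only through stem cell libraries. Their direction was thus fixed by the filter. The median was -6.85, or -5.16 with the genes at 0 counts set to their floor, and between 13 and 15 members were called lower when any library was left out. Besides Trim43a, Gm13128 and Pramel6, the widest gap was that of 2410004A20Rik, with 1 count in each mesoderm library against 14.8, 18.3 and 20 CPM. The Trim43a level varied among the other libraries, at 6.89 CPM in 2i, 11.3 CPM in 2iJ and 129 CPM in the sorted cells. Gm13128 was at 19.4, 17.7 and 11.8 CPM in the same libraries. Zscan10, a zinc finger gene of mESCs, was the member not called (log2 fold change -0.41, edgeR adjusted p = 0.519). In the heat map of these classes, the mesoderm columns are dark throughout the early embryo panel except for Zscan10 and, to a lesser degree, Pramef12.

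**Figure D5:**
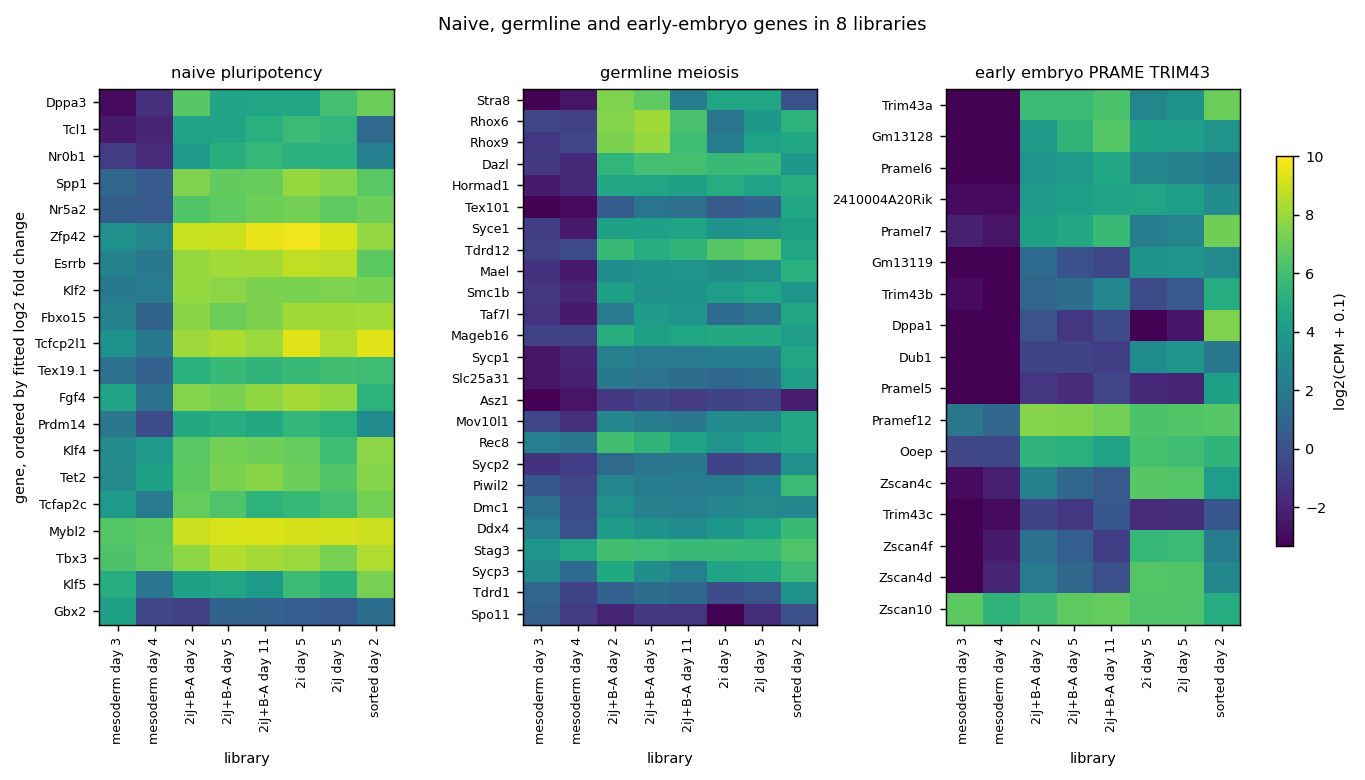
Expression of the naive pluripotency, germline and early embryo genes that passed the filter (rows, ordered by fitted log2 fold change) in all 8 libraries (columns), with colour giving log2(CPM + 0.1). The 2 mesoderm columns are darkest for most rows, for example Dazl at 0.382 and 0.194 CPM, and the 2i and 2iJ columns differ from 2iJ+B-A for Rhox6 and Rhox9.

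Chromatin genes were partly lower. Of 24 genes of DNA methylation and Polycomb function, 11 were called lower, against 15.5% of all genes. The 2 called higher (Dnmt3b and Cbx2) were a share under the 11.5% of all genes, and the median was -0.83. Dnmt3l, the cofactor of the de novo DNA methyltransferases, was at 3.27 and 1.23 CPM against 112, 117 and 255 CPM (log2 fold change -6.15, SE 0.661, edgeR adjusted p = 0.00292). Tet2, which oxidises methylated cytosine, was at 7.54 and 19.2 CPM against 99.6, 157 and 196 CPM (log2 fold change -3.48, SE 0.51, adjusted p = 0.00655). Cbx7, the chromobox protein of Polycomb complex 1 in mESCs, was at 66.9 and 46.9 CPM against 208, 273 and 235 CPM (log2 fold change -2.06, SE 0.211, adjusted p = 0.00269). All 3 were lower without overlap, and between 8 and 11 members were called lower when any library was left out.

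HOX genes, which pattern the body axis, went both ways. Of 26 tested, 3 were called higher (Hoxb1, Hoxb2 and Hoxb3), a share at the 11.5% of all genes, and 8 lower, against 15.5% of all genes, with a median of -1.12. Those lower were Hoxa5, Hoxa7, Hoxa10, Hoxb7, Hoxb9, Hoxb13, Hoxc4 and Hoxc13. Hoxb1 was at 21.2 and 44.9 CPM against 0.163, 1.75 and 0.326 CPM (log2 fold change 5.47, SE 0.967, edgeR adjusted p = 0.0111). Hoxb9 was at 0.35 and 0.194 CPM against 8.11, 15.3 and 8.56 CPM (log2 fold change -5.25, SE 0.565, adjusted p = 0.00292), and Hoxc4 at 5 counts in each mesoderm library against 3.67, 3.47 and 3.26 CPM. Hoxb9 and Hoxb1 thus moved in opposite directions, but levels were low. Without the 2iJ+B-A library of day 5, 3 HOX genes were called lower, and 5 without that of day 2 or of day 11. Higher calls numbered 6 without the mesoderm library of day 3 and 1 without that of day 4 or the 2iJ+B-A library of day 2 or day 11.

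Imprinted genes went both ways. Of 24 tested, 6 were called higher (Rian, Mirg, Peg3, Ndn, Impact and Nnat) and 4 lower (H19, Plagl1, Grb10 and Dio3), with a median of 0.71. The share called lower was near the 15.5% of all genes, and that called higher is read against 11.5%. Grb10, an adaptor that restrains growth, was at 4.48 and 2.29 CPM against 56.5, 82.7 and 50.9 CPM (log2 fold change -4.21, SE 0.409, edgeR adjusted p = 0.00234). Plagl1, a zinc finger factor, was at 9.73 and 10.4 CPM against 86, 190 and 173 CPM (log2 fold change -3.88, SE 0.386, adjusted p = 0.00249). Dio3, which inactivates thyroid hormone, was at 1.08 and 0.0646 CPM against 18.4, 27 and 23.9 CPM. H19, a long noncoding RNA of embryonic and extraembryonic tissue, was at 38.6 and 297 CPM against 2043, 2476 and 3443 CPM, with 24.1 CPM in 2i, 84.1 CPM in 2iJ and 5018 CPM in the sorted cells. These genes were chosen among separating members, and the 2i and 2iJ libraries lay with the mesoderm progenitors for H19. The H19 call (adjusted p = 0.022) was lost when any single 2iJ+B-A library was left out (adjusted p between 0.0514 and 0.0588). Higher imprinted calls numbered 11 without the mesoderm library of day 3 and 3 without that of day 4 or the 2iJ+B-A library of day 2 or day 5. Cell cycle and MYC genes differed little: 3 of 24 were called higher (Ccne2, Cdk4 and Myc), a share near the 11.5% of all genes. E2f1 alone was called lower, under the 15.5% of all genes, and the median was 0.16. The Myc call was lost without the mesoderm library of day 4 or the 2iJ+B-A library of day 2 or day 11 (adjusted p between 0.0815 and 0.0978), and that of E2f1 without the 2iJ+B-A library of day 5 (0.0538).

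The 3 libraries outside the comparison were set against the same genes. They took part in the filter on low counts and in the scaling, so this is a description and not an independent check. For each gene with a gap of at least 1 log2 unit, the midpoint between the nearest mesoderm and 2iJ+B-A values was taken, and a library was placed on either side of it. Of the 1032 genes higher in the mesoderm progenitors, the stem cell side held 92.7% in 2i (Wilson 95% interval 91.0 to 94.2), 92.2% in 2iJ (90.3 to 93.6) and 83.1% in the sorted cells (80.7 to 85.3). Of the 2188 lower genes it held 86.8%, 89.4% and 78.2%. The sorted library thus placed 174 of the higher and 477 of the lower genes on the mesoderm side, and it is the library with 29.7% unmapped reads. There was 1 library per condition, and the intervals cover only the number of genes. By class, all 17 naive pluripotency genes with such a gap were on the stem cell side in 2i and 2iJ, as were all 9 core pluripotency genes and all 8 mesenchymal genes. In the sorted cells it was 15 of the 17 naive genes, and 7 of 10 genes in the ERK class. In the sterol class it was 17 of 18 in 2i and 18 of 18 in 2iJ and in the sorted cells. Among the genes described above, those on the mesoderm side included Rhox6, Rhox9, Scd2 and Stat3 in 2i, Hey1, Notch3, Cldn4 and Ndrg1 in 2iJ, and H19, Gata2, Acta2, Lgr5, Cdx4 and Esrp2 in both. In the sorted cells they included Dusp4, Foxc1, Lmo2 and Cdh5 of the higher genes, and Nid1, Pfkp, Tdh, Id4, Lgr5 and Hoxa7 of the lower genes.

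Within the mesoderm progenitors, most genes with a gap of at least 1 log2 unit differed by less than that between the days. Part of this follows from the choice, since both days had to lie on the same side of 2iJ+B-A. In addition, 326 of the lower genes had 0 counts on both days, and the prior count of 2 draws low values together. Of the 1032 higher genes, 752 differed by less than 1 log2 unit between days 3 and 4, 158 were higher on day 4 and 122 higher on day 3. Of the 2188 lower genes, 1632 were within 1 log2 unit, and 413 were higher on day 3, that is, nearer to 2iJ+B-A, against 143 on day 4. Over days 2, 5 and 11 of 2iJ+B-A, the median range was 0.75 log2 units for the higher genes and 0.82 for the lower genes. Each day was 1 library, so no test was made.

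Promoter motifs were counted in windows from 250 bases before to 50 after the RefSeq start, on either strand, for 15522 promoters of 12213 tested genes. A TCF/LEF motif (CTTTGAT) was in 2.60% of all promoters, in 2.401% of those of the higher genes with a gap of at least 1 log2 unit (n = 958) and in 3.01% of those of the lower genes (n = 1894). The T-box motif (AGGTGTGA) was in 0.92%, 1.25% and 1.27%, and the SMAD motif (GTCTAGAC) in 0.26%, 0.21% and 0.16%. An octamer motif (ATGCAAAT) was in 1.37%, 1.77% and 1.74%, and the KLF motif (GGGTGTGG) in 3.87%, 4.07% and 4.91%. The E-box CAGATG was in 11.8%, 14.3% and 14.3%. The ESRRB motif (TCAAGGTCA) was in 0.28% of all promoters, in 1 of 958 (0.10%, Wilson 95% interval 0.018 to 0.589) on the mesoderm side and in 10 of 1894 (0.53%, 0.287 to 0.969) on the stem cell side. With a gap of at least 2 log2 units (n = 296 and 924), the order of the TCF/LEF shares turned round. They were 3.72% on the mesoderm side (11 promoters, Wilson 95% interval 2.09 to 6.53) and 2.92% on the stem cell side (27 promoters, 2.02 to 4.22). The SMAD motif was in 2 promoters (0.68%, 0.19 to 2.43) and 1 promoter (0.11%, 0.02 to 0.61). The intervals of the 2 sides overlapped for both motifs. A match is a description of the sequence, not of binding.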

How the data were processed

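Strand-specific poly-A libraries were sequenced as read pairs. The authors trimmed adapters with cutadapt and aligned reads to NCBIM37 with STAR 2.4.2a, per the study's methods and the submitters' processing notes. The deposited files hold raw gene counts (read pairs), without batch adjustment, of which the reverse-strand column was used. The annotation release was not given in the sources used here. Symbols came from GENCODE for NCBIM37, which named 37205 of 37620 genes.

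All 8 libraries were fitted in edgeR 4.0.16 (R 4.3.3) with 1 coefficient per group (5 groups, 3 residual degrees of freedom), TMM scaling and the quasi-likelihood test. The filter asked for 10 or more counts in 2 or more libraries, and 16961 genes passed. The Benjamini-Hochberg threshold was 0.05 and the biological coefficient of variation 0.363. Tests measure the spread between these libraries only. Gaps used log2 CPM with TMM and a prior count of 2, and CPM of single genes are untransformed shares of gene counts, with no TMM. Intervals and floors cover counting error only.

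The groups, gene lists and members were chosen with earlier results of these data known. Named genes were the markers, the 15 protein-coding called genes per direction with the widest gap, and the 4 called, separating members with the widest gap in each list. Others are named only where a count was 5 or fewer, or were chosen after their values were seen. Alternatives were DESeq2 1.42.0, RLE scaling, no filter, only the 5 libraries, unstranded counts, a gap of 2 log2 units, a minimum of 5 CPM and each library left out. Values of some genes are not reported here, although the counts include them.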

Additional observations from a re-analysis of the deposited data

How the results depend on the processing

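The number of genes called (4584) was 5502 with DESeq2, 4588 with RLE scaling, 4715 with no filter on low counts, 4520 with only the 5 libraries compared and 4683 with unstranded counts. Leaving out 1 library moved it more, between 2019 (without 2iJ+B-A day 5) and 4538, with 2666 without 2iJ+B-A day 11. Genes called higher ranged from 773 to 2118 and lower from 1246 to 2420, and called list members (270) from 174 to 315. With no filter, 14841 genes separated the groups, and with 1 library left out between 10437 and 13071. Genes with a gap of at least 1 log2 unit ranged from 1240 to 1926 (higher) and from 2177 to 3043 (lower) with 1 library left out, where fewer pairs have to agree. A gap of 2 log2 units left 328 higher and 1106 lower genes. With at least 5 CPM in every library of the higher group, the stem cell side held 95.04%, 94.3% and 86.7% of the higher genes and 91.2%, 92.8% and 85.1% of the lower genes in 2i, 2iJ and sorted cells. Of 132 named genes, all kept their direction and call with DESeq2, RLE scaling and no filter. Tjp3 lost its call with only the 5 libraries, and Uqcrb and Cox5a with unstranded counts. Of the 132, 103 were called in all 5 fits that left out 1 library, and no named gene changed direction. No paired analysis was possible because the groups share no day, and the labels give no number that pairs their libraries.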

Other observations

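Opposite-strand counts were examined for the 623 list members and named genes. None (0 of 623) had at least 5 CPM on the opposite strand in both mesoderm libraries, at least 4 times the highest 2iJ+B-A library and at least 25% of its sense-strand CPM.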
